A study of Mus musculus with 24 samples.

Results

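The 48 genes described here carry out mitosis and its spindle checkpoint, and their levels were followed in 8 lines of mouse astrocytes that lack p53 or overexpress a p53 mutant. They were named from what is known of mitosis: cyclins and kinases that start it, checkpoint and kinetochore proteins, spindle motors, proteins of cytokinesis, condensins and the transcription factors of the programme. All 48 were found among the 14427 genes of the deposited count table. Every one of them exceeded 1 CPM (counts per gene scaled to library size) in each library, with between 575 and 52451 reads per library, so all 48 passed the filter on low values.

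Cells were cortical astrocytes of C57BL/6 mice, taken on postnatal day 1 from pups with one floxed and one deleted Trp53 allele, and at least 3 pups of a sex were pooled into 1 male and 1 female culture. Mutant lines were made with a retrovirus that expresses p53 R172H, p53 Y202C or p53 Y217C together with eGFP, were sorted for eGFP, and then received a lentivirus with Cre and puromycin resistance that removes the floxed allele. The male p53 KO and female p53 KO lines received Cre without a mutant. Each of the 8 lines has 3 replicate libraries, 24 in all, from passages 10 to 15, grown in DMEM/F12 with 10% FBS. Each sex is represented by 1 culture, so sex and culture cannot be told apart. The study states for its in vitro work that replicates are separate thaws and platings, so p-values cover the variation among platings of a line, not among animals. All lines carry Cre and the deleted alleles, and the KO lines differ from the mutant lines also in lacking the retrovirus and the eGFP sort.

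Mitosis begins when cyclin B and Cdk1 become active, after Cdc25 phosphatases remove an inhibitory phosphate from Cdk1, and Plk1 and the Aurora kinases then build the spindle. The spindle checkpoint holds Cdc20 back until every kinetochore is attached, and its release lets the anaphase-promoting complex destroy securin and cyclin B so that separase can part the sister chromatids. Transcripts of these genes build up in G2 and M phase, when B-Myb and FoxM1 act with the MuvB complex at a promoter element called the cell cycle genes homology region (CHR), often beside CCAAT boxes bound by NF-Y. Cells outside the cycle repress the same promoters through the DREAM complex, and wild-type p53 lowers many of them through p21.

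The labels were checked on Trp53 itself. Its level was 48.25 to 53.73 CPM in the 3 male p53 KO libraries and 46.5 to 51.87 CPM in the 3 female ones, and no mutant library held less than 572.5 CPM. In males the mean was 2286.8 CPM with p53 R172H, 2323.7 CPM with p53 Y202C and 1215.3 CPM with p53 Y217C. In females it was 1955.6, 593.1 and 3708.9 CPM in the same order, so the 2 sexes were close with p53 R172H and far apart with p53 Y202C and p53 Y217C. Counts are per gene, so reads of the virus and of what remains of the deleted alleles cannot be told apart. Total counts per library ran from 52787288 to 136503809. The 8 astrocyte markers checked summed to only 111.6 to 495.5 CPM per library, with Gfap at or under 8.372 CPM and Aqp4 at 0 in every male p53 R172H and female p53 KO library, while 5 fibroblast markers led by Col1a1 summed to 7971.1 to 41277.5 CPM. Among the markers of other types, Aif1, Cx3cr1, P2ry12 and Itgam of microglia, Olig1, Olig2 and Sox10 of oligodendrocytes, Rbfox3, Snap25 and Dcx of neurons, and Pecam1 of endothelium were not among the genes counted.

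Promoter sequences show what most of the genes share beyond their role. RefSeq promoters on GRCm38.p6, each 250 bases before to 50 bases after a start, were found for 40 of the 48 genes. The CHR element was searched as TTTGAA or TTTAAA and the NF-Y site as CCAAT, on both strands, and the CHR and CCAAT matches overlapped in 0 promoters of the set. Of the 40 genes, 32 (80.0%) held a CHR match in at least one promoter, against 22.7% of the 10290 counted genes with a promoter. With TTTGAA alone the shares were 72.5% and 14.2%. CCAAT was present in 72.5% of the 40 genes against 43.1% of counted genes, and at least 2 copies in 42.5% against 16.5%. The stretches below run from 100 bases before to 25 bases after the start, 5′ to 3′ on the gene's strand, with matches to either motif, on either strand, in capitals. Cdk1, Ccnb2, Cdc20 and Plk1 are shown because they fell in male p53 Y202C, female p53 R172H and female p53 Y202C, and Pttg1 and Cdc25b because they did not.

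Cdk1, chr10:69352888-69353012, minus strand: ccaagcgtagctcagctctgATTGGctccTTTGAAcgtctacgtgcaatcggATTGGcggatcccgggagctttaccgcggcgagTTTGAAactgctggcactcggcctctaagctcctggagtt
Ccnb2, chr9:70421530-70421654, minus strand: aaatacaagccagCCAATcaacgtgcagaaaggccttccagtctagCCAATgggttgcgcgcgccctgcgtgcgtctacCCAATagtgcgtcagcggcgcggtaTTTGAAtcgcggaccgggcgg
Cdc20, chr4:118437319-118437443, minus strand: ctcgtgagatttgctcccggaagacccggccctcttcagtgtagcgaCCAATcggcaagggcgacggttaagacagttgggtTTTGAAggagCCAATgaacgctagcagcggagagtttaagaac
Plk1, chr7:122159335-122159459, plus strand: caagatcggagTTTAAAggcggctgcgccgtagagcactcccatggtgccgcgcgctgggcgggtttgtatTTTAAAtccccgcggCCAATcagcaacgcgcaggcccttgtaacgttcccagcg
Pttg1, chr11:43425957-43426081, minus strand: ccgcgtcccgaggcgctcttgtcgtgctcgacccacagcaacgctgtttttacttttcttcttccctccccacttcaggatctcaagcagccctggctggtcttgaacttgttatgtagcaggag
Cdc25b, chr2:131186848-131186972, plus strand: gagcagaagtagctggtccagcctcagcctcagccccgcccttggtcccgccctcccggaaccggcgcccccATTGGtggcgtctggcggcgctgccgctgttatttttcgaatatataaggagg

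The first 4 windows hold both a CHR match and at least 1 CCAAT match, where ATTGG is CCAAT read on the other strand. Cdc25b has a CCAAT match only, and Pttg1 has neither. The windows were picked by these falls and do not stand for the whole set. No CHR match was found for Cdc25b, Bub1, Mad2l1, Pttg1, Nuf2, Nusap1, Ncaph and Mybl2. Of these, Bub1, Nusap1, Ncaph and Mybl2 fell in male p53 Y202C, female p53 R172H and female p53 Y202C. Bub3, Cenpa and Racgap1 hold a CHR match and were not lower in all of those lines. Ccna2, Cdc25c, Aurkb, Incenp, Tpx2, Kif20a, Smc4 and Foxm1 had no promoter in the table. A match is a stretch of letters and not a measured binding site.

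Levels between genes were compared per kilobase of exon, as RPKM (CPM divided by exon length in kilobases). Averaged over the 8 lines, Cdc20, the activator of the anaphase-promoting complex, had the highest level of the set at 48.8 RPKM. Plk1 at 44.9 and Ube2c, the ubiquitin-conjugating enzyme of the same complex, at 44.7 RPKM were close behind it. The order varied between lines: Cdc20 was highest in 5 of the 8, and Tpx2 at 42.1 RPKM led in male p53 Y202C, where Cdc20 was at 26.4 RPKM. Smc4 led in female p53 Y202C and Ube2c in female p53 Y217C. The lowest line averages were Knl1, a kinetochore scaffold, at 4.05 RPKM and Cdc25c, lowest in 6 of the 8 lines, at 3.20 RPKM.

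The summed CPM of the 48 genes separated the lines into levels. In male p53 KO the 3 libraries held 5411.9, 4999.9 and 4885.6 CPM (mean 5099.1 ± 276.8, SD, n = 3), and in female p53 KO they held 5737.5, 5656.6 and 5374.4 CPM (mean 5589.5 ± 190.6). Male p53 Y202C stood lowest at 2533.2 ± 158.6 CPM, 49.7% of the level of its knockout. Female p53 R172H at 3746.8 ± 366.2 CPM and female p53 Y202C at 3671.4 ± 242.8 CPM were at 67.0% and 65.7% of theirs, and these 2 lines did not differ beyond their spread. Male p53 Y217C at 4336.7 ± 409.1 CPM (85.0%) and male p53 R172H at 4834.4 ± 369.3 CPM (94.8%) overlapped one another. Female p53 Y217C at 5722.0 ± 472.9 CPM (102.4%) overlapped female p53 KO. These sums come from bulk RNA, so fewer dividing cells and less RNA per dividing cell cannot be told apart. The sums are scaled to library size and are not a measure of growth. In the paper's plate assay, male p53 Y202C grew more than p53 KO. So did male p53 Y217C and, among females, p53 R172H. No gain over p53 KO is reported for male p53 R172H or for female p53 Y202C. With p53 Y217C in females, growth was slower than in p53 KO. How the sums relate to growth was not tested.

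**Figure D1:**
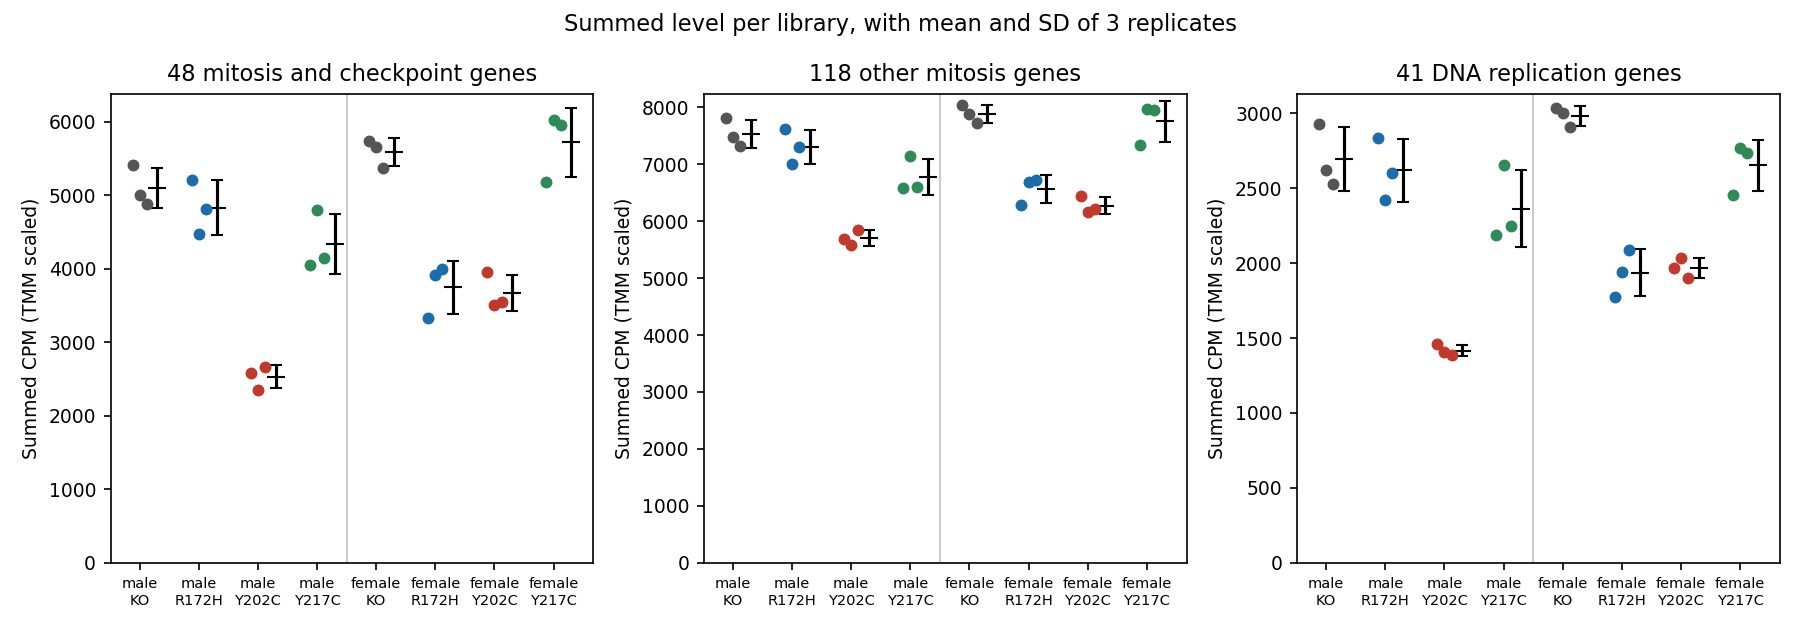
Summed CPM per library (y axis, TMM scaled, from 0) for the 8 lines (x axis), with points for libraries and a bar for mean ± SD of 3 replicates, for the 48 genes, 118 other mitosis genes and 41 DNA replication genes. All 3 male p53 Y202C libraries lie below every other library in each panel, between 2355.8 and 2661.0 CPM in the first.

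Each mutant line was then compared with the knockout of its own culture, which sets it beside the loss of p53 alone. Each mutation is a single line in each culture. An effect of the mutant protein therefore cannot be told apart from other differences between the lines, among them the retrovirus and the sort. Counts were tested with edgeR's quasi-likelihood test on all 24 libraries, and a gene was called where the Benjamini-Hochberg adjusted p over all 14427 genes was at most 0.05. Lines of one sex share the same 3 KO libraries, so their comparisons are not independent of each other.

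Male p53 Y202C showed the lowest levels. Of the 48 genes, 44 were lower and 3 higher than in male p53 KO, where 73.0% of all genes tested were called, 35.4% lower and 37.6% higher. The median log2 fold change was -1.22 over the set and 0.01 over all genes, and 39 of the 48 were lower by more than 0.5, against 22.4% of all genes. Most were lower in female p53 R172H too, with 43 lower and 1 higher and a median of -0.58 (all genes, -0.01; 69.7% called, 35.3% lower and 34.4% higher), and 29 of them lower by more than 0.5 against 18.1% of all genes. In female p53 Y202C 43 were lower and 0 higher, with a median of -0.57 (all genes, -0.00; 68.6% called, 34.3% in each direction), and the count of higher genes was 0 also at an unadjusted p under 0.05, by DESeq2 and by voomWithQualityWeights.

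The other 3 mutant lines were closer to their knockout, and in each of them the share of members called was below the share of all genes. In male p53 Y217C 24 genes were lower and 2 higher, with a median of -0.17 (all genes, 0.00), and 26 of 48 were called against 70.5% of all genes (35.6% lower, 34.9% higher). Female p53 Y217C was the only line with more members higher, 13, than lower, 5, with a median of 0.05 (all genes, 0.00; 56.7% called, 28.0% higher and 28.7% lower). In male p53 R172H 11 were lower and 1 higher, with a median of -0.11 (all genes, 0.01; 40.7% called, 20.5% lower and 20.2% higher), and only Mybl2 was lower by more than 0.5, against 7.58% of all genes. The count of 12 genes called in either direction in male p53 R172H depended on single libraries. It was 6 genes without male p53 KO replicate 1, 5 without male p53 R172H replicate 2 and 7 without male p53 R172H replicate 3. It was 20 when only the 2 lines compared were fitted.

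**Figure D2:**
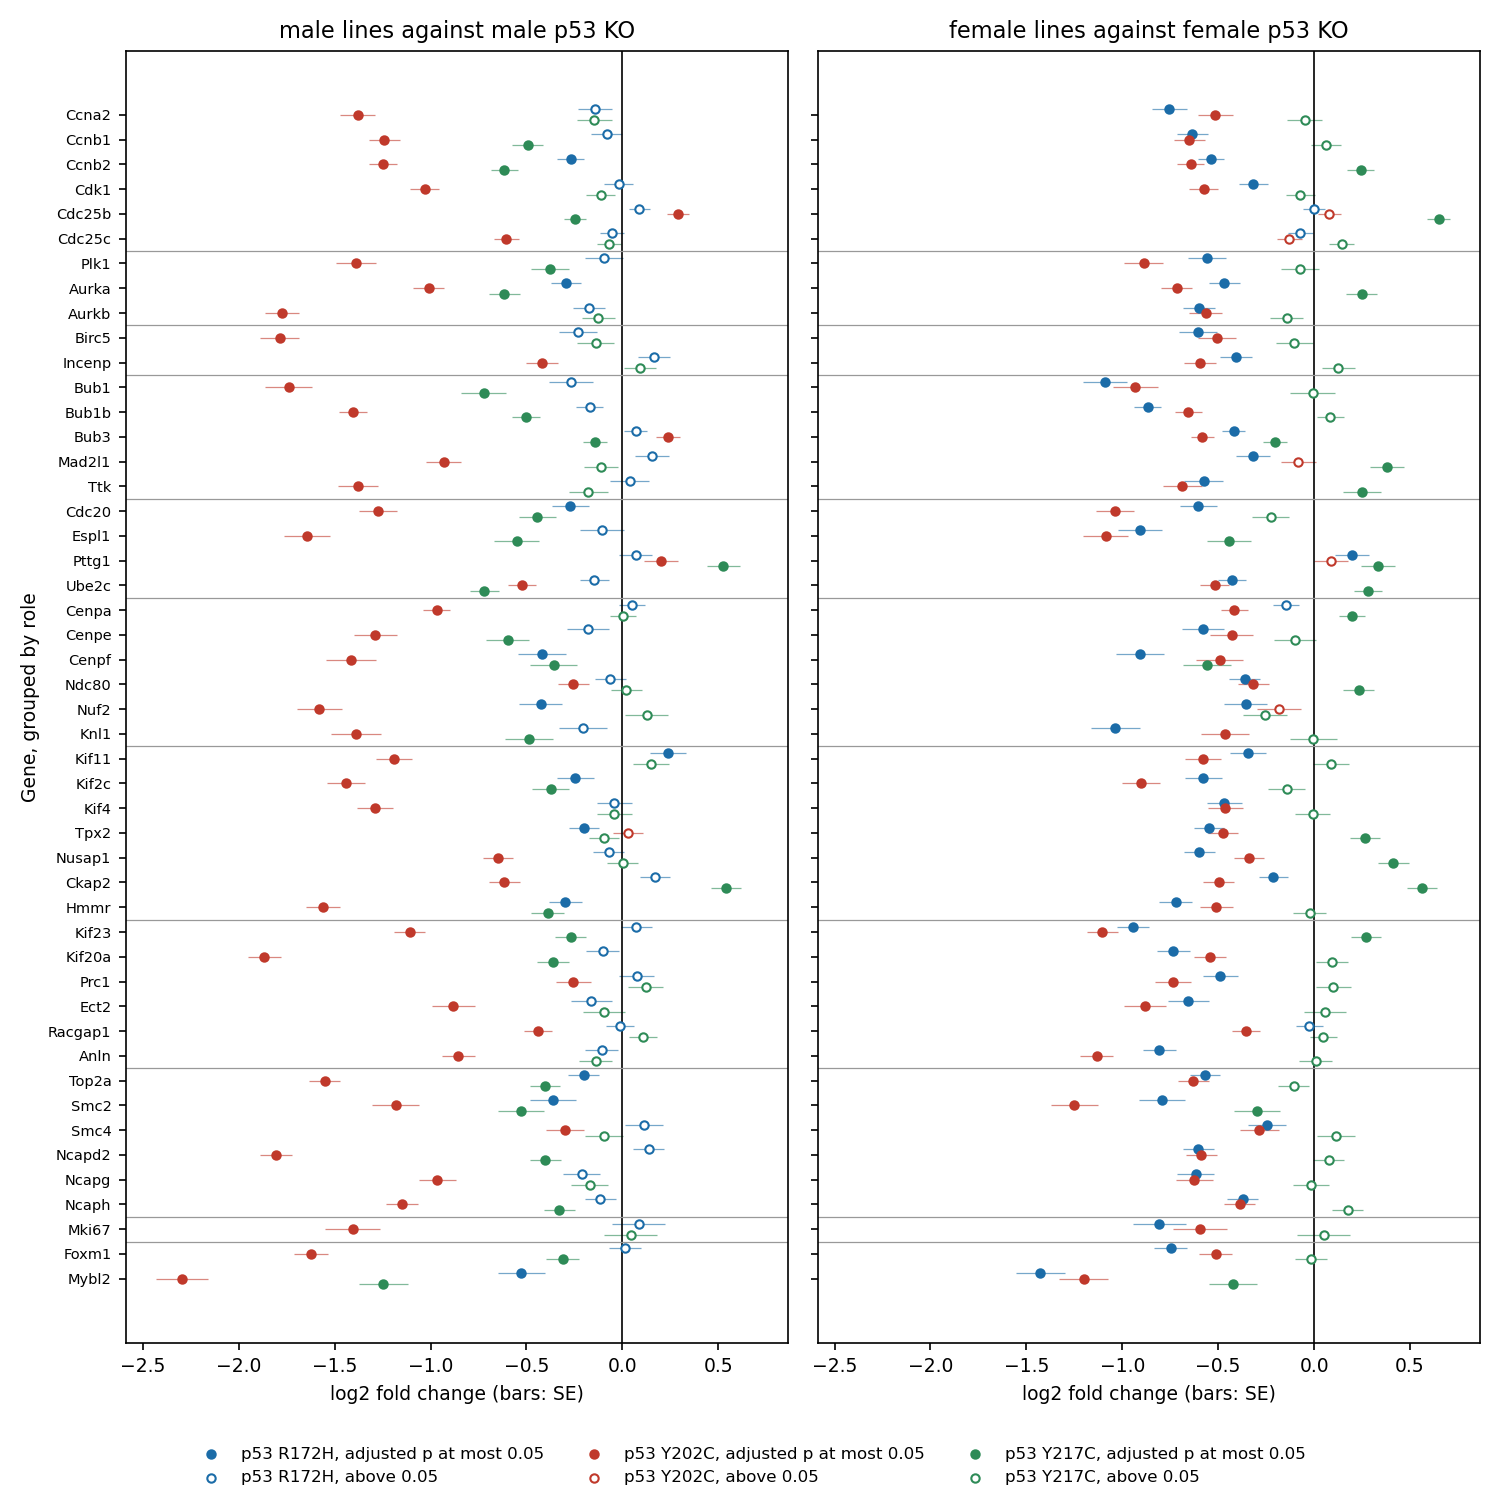
log2 fold change against the knockout of the same culture (x axis, bars are SE) for each of the 48 genes (y axis, grouped by role), male lines left and female lines right, with filled points for an adjusted p of at most 0.05. Male p53 Y202C lies furthest left for most genes, with Cdc25b, Bub3, Pttg1 and Tpx2 at or right of 0.

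Among the genes that start mitosis, the cyclins and Cdk1 were lower in male p53 Y202C and in females with p53 R172H or p53 Y202C. Ccnb1, the cyclin B that activates Cdk1, was at 102.2, 93.34 and 89.42 CPM in male p53 KO and at 41.7, 35.98 and 42.81 CPM in male p53 Y202C, with no overlap. Its log2 fold change there was -1.24 ± 0.08 (SE; adjusted p = 1.48e-12 by edgeR). In the female lines Ccnb1 was at 100.3, 101.8 and 94.56 CPM in p53 KO, at 57.47, 64.53 and 68.93 CPM in p53 R172H and at 66.37, 66.29 and 56.52 CPM in p53 Y202C. Both mutant lines were thus below all 3 KO libraries, by -0.64 ± 0.08 and -0.65 ± 0.08 on the log2 scale (adjusted p = 1.75e-07 and 1.56e-07). Ccnb2, another cyclin B, and Ccna2, cyclin A of S phase and G2, were lower in the same 3 lines, by -0.52 to -1.38. Male p53 Y217C also had lower Ccnb1 and Ccnb2. Over the 6 mutant lines Ccnb1 was lower in 4, Ccnb2 in 5 and Ccna2 in 3, and Ccnb2 was higher in 1. Cdk1, the kinase itself, went from a mean of 105.5 ± 10.0 CPM in male p53 KO to 51.6 ± 2.16 CPM in male p53 Y202C, and from 109.1 ± 1.95 to 87.5 ± 6.93 CPM in female p53 R172H.

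Of the phosphatases Cdc25b and Cdc25c, which remove the inhibitory phosphate from Cdk1, Cdc25b did not share that course. It was at 49.9, 49.12 and 48.87 CPM in male p53 KO and at 64.4, 57.45 and 59.16 CPM in male p53 Y202C, so it rose where the cyclins fell (log2 0.29 ± 0.06, adjusted p = 7.89e-05). In female p53 Y217C it was at 75.09, 74.9 and 78.51 CPM against 48.52 to 48.61 CPM in female p53 KO, the largest rise of the set in any line (log2 0.65 ± 0.06). In male p53 Y217C it was lower, at -0.25 ± 0.06. Cdc25c passed the test in male p53 Y202C alone, at -0.61 ± 0.06, and its values in the other 5 lines lay between -0.13 and 0.14. Its line means ran with those of the other 47 genes (Pearson r = 0.935 over 8 lines), over a smaller range. Male p53 Y202C was its lowest line, and r without that line was not computed. Cdc25b overlaps the counted gene Spef1 on the opposite strand, and whether reads were counted by strand is not stated, so reads of the pair cannot be told apart.

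All 3 mitotic kinases and both partners of Aurora B were lower in male p53 Y202C, female p53 R172H and female p53 Y202C. Plk1 was lower in 4 of the 6 mutant lines, male p53 Y217C among them. Aurka was lower in 5 and higher in 1. Plk1, which drives centrosome maturation, spindle assembly and mitotic exit, was at 47.96, 44.32 and 42.6 CPM in male p53 Y202C against 127.5, 117.8 and 108.4 CPM in male p53 KO, and its log2 fold change was -1.39 ± 0.10. In female p53 Y202C Plk1 was lower by -0.89 ± 0.10 and in female p53 R172H by -0.56 ± 0.10. Aurkb, the kinase of the chromosomal passenger complex that corrects wrong attachments, and Birc5 (survivin), a subunit of that complex, fell to about the same depth in male p53 Y202C, by -1.78 ± 0.09 and -1.79 ± 0.10. Incenp, the scaffold of the same complex, fell less, by -0.42 ± 0.08. Aurka, which acts at spindle poles, was lower in male p53 Y217C at -0.62 ± 0.08 and higher in female p53 Y217C at 0.25 ± 0.08.

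Among the 5 checkpoint genes, Bub1, Bub1b and Ttk were lower in male p53 Y202C, female p53 R172H and female p53 Y202C. Bub3 was higher in the first of these. Bub1 and Bub1b were each lower in 4 of the 6 mutant lines, male p53 Y217C among them. Bub1, a kinase that recruits the other checkpoint proteins to kinetochores, was at 65.8, 60.15 and 58.35 CPM in male p53 KO and at 18.86, 16.21 and 20.1 CPM in male p53 Y202C (log2 -1.74 ± 0.12, adjusted p = 4.71e-12). In female p53 R172H Bub1 was at 27.92, 35.17 and 35.02 CPM against 65.91 to 72.01 CPM in female p53 KO, a log2 fold change of -1.09 ± 0.12. Bub1b (BubR1), part of the mitotic checkpoint complex, and Ttk (Mps1), the kinase that sets the checkpoint off, were lower by -1.40 ± 0.07 and -1.38 ± 0.10 in male p53 Y202C. Mad2l1 (Mad2), which binds Cdc20 directly, was lower by -0.93 ± 0.09 in male p53 Y202C and by -0.32 ± 0.09 in female p53 R172H. With p53 Y202C in females its value was -0.08 ± 0.09 and did not pass the test (adjusted p = 0.427), and in female p53 Y217C it rose by 0.38 ± 0.09.

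Bub3, the partner that docks Bub1 and BubR1 at kinetochores, was at 95.43, 98.87 and 88.13 CPM in male p53 Y202C and at 85.91, 79.65 and 73.93 CPM in male p53 KO. The libraries did not overlap and the difference was a rise of 0.24 ± 0.06 (adjusted p = 0.00137). In the female lines it fell, to 65.08, 66.13 and 74.8 CPM in p53 R172H and to 58.98, 66.7 and 58.52 CPM in p53 Y202C from 89.88, 94.3 and 91.54 CPM in p53 KO. The lower value of Bub3 in male p53 Y217C (-0.14, adjusted p = 0.0415) was lost without male p53 KO replicate 1 (-0.09, adjusted p = 0.239) or replicate 2, or without male p53 Y217C replicate 1 or 2. Bub3 lies at chr7:131560222-131571895 on GRCm38 and overlaps the counted gene Fgfr2 on the opposite strand. The 20 counted genes nearest to it had a median log2 fold change of 0.24 in male p53 Y202C, and the part of the region in its rise was not tested.

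Of the anaphase genes, Cdc20, Espl1 and Ube2c were lower in 4 or 5 of the 6 mutant lines and Pttg1 in none. Cdc20 was at 124.9, 119.9 and 113.0 CPM in male p53 KO, 54.7, 49.67 and 43.39 CPM in male p53 Y202C and 80.75, 101.1 and 81.34 CPM in male p53 Y217C. In female p53 KO it was at 126.2, 126.5 and 121.7 CPM, and in female p53 Y202C at 58.71, 70.13 and 53.52 CPM, overlapping the male line with that mutation. The Cdc20 call in male p53 R172H (-0.27) was lost without male p53 KO replicate 1 (adjusted p = 0.0993) or 2 (0.0645), or without male p53 R172H replicate 2 (0.143) or 3 (0.0524). Espl1, the separase that cuts cohesin, was lower in 5 of the 6 mutant lines, by -0.44 ± 0.11 in female p53 Y217C up to -1.65 ± 0.12 in male p53 Y202C. Ube2c was lowest not in male p53 Y202C (-0.52 ± 0.07) but in male p53 Y217C (-0.72 ± 0.08), and it rose by 0.28 ± 0.07 in female p53 Y217C.

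Pttg1, securin, the inhibitor of separase, was not lower in any line. It was at 10.77, 10.88 and 10.65 CPM in male p53 KO and at 16.18, 14.32 and 16.03 CPM in male p53 Y217C, without overlap (log2 0.53 ± 0.09, adjusted p = 9.76e-06). In female p53 Y217C it was at 14.13, 13.47 and 12.29 CPM against 10.28 to 10.73 CPM in female p53 KO (0.33 ± 0.09, adjusted p = 0.0024). Smaller rises in male p53 Y202C (0.20, adjusted p = 0.0411) and female p53 R172H (0.20, adjusted p = 0.0487) were not firm. The first was lost without any 1 of its 6 libraries other than male p53 Y202C replicate 1 (adjusted p up to 0.187), and the second without any 1 other than female p53 R172H replicate 3 (adjusted p up to 0.184). In those comparisons the separase gene Espl1 changed by -1.65 and -0.91, opposite in sign to its inhibitor.

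The 6 centromere and kinetochore genes were all lower in male p53 Y202C, with a median of -1.34, and 5 of the 6 in female p53 R172H and also with p53 Y202C in females. One of the 5 in female p53 R172H, Nuf2, was lost without female p53 R172H replicate 1 (-0.27, adjusted p = 0.0556). Cenpf, a kinetochore protein of G2 and M phase, was at 107.5, 96.09 and 96.45 CPM in male p53 KO and at 36.31, 31.85 and 44.4 CPM in male p53 Y202C, and was also lower in the other 5 lines, by -0.36 to -0.91. The call in male p53 R172H (-0.42) was lost without male p53 R172H replicate 2 (adjusted p = 0.054), and that in male p53 Y217C (-0.36) without male p53 KO replicate 1 (0.0568) or male p53 Y217C replicate 3 (0.0561). In female p53 Y217C its value of -0.56 ± 0.13 stood beside a median of -0.61 for its 20 nearest counted genes, with 1 of the 20 above 0. Knl1, which carries the docking motifs for Bub3 with Bub1, was lower by -1.04 ± 0.13 in female p53 R172H but by -0.46 ± 0.13 in female p53 Y202C. Nuf2 and Ndc80 form one microtubule-binding complex, yet in male p53 Y202C Nuf2 was lower by -1.58 ± 0.12 and Ndc80 by -0.26 ± 0.08. Cenpa, the histone H3 variant of centromeres, was lower by -0.97 ± 0.07 in male p53 Y202C and did not pass the test in female p53 R172H (-0.14 ± 0.07, adjusted p = 0.0634).

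Spindle motors and microtubule proteins were split within male p53 Y202C. Hmmr, Kif2c and Kif4 fell there by -1.56 ± 0.09, -1.44 ± 0.10 and -1.29 ± 0.09, and Kif11 (Eg5), the motor that pushes spindle poles apart, by -1.19 ± 0.10. Tpx2, which activates Aurora A and nucleates spindle microtubules, was at 187.3, 190.4 and 212.8 CPM in male p53 Y202C against 200.9, 191.2 and 187.0 CPM in male p53 KO, overlapping, with a log2 fold change of 0.03 ± 0.08 (adjusted p = 0.759). In the female lines Tpx2 fell with the others, to 120.2, 153.2 and 144.8 CPM in p53 R172H and 158.9, 138.1 and 142.9 CPM in p53 Y202C from 207.2, 205.0 and 198.3 CPM in p53 KO. Tpx2 lies at chr2:152847964-152895321, and its 20 nearest counted genes had a median of 0.22 in male p53 Y202C.

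Ckap2, a microtubule-stabilising protein, rose with p53 Y217C in both sexes. It was at 53.24, 61.05 and 52.71 CPM in male p53 Y217C against 40.07, 37.74 and 37.12 CPM in male p53 KO, and at 61.84, 73.66 and 73.12 CPM in female p53 Y217C against 47.43, 47.83 and 46.05 CPM in female p53 KO. The log2 fold changes were 0.54 ± 0.08 and 0.56 ± 0.08. Nusap1, which bundles spindle microtubules, rose by 0.41 ± 0.08 in female p53 Y217C, with 0.00 ± 0.08 in male p53 Y217C. Kif11 was the 1 gene higher in male p53 R172H (0.24, adjusted p = 0.0427), a call that was lost without any 1 of the 6 libraries other than male p53 R172H replicate 2 (adjusted p up to 0.144).

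**Figure D3:**
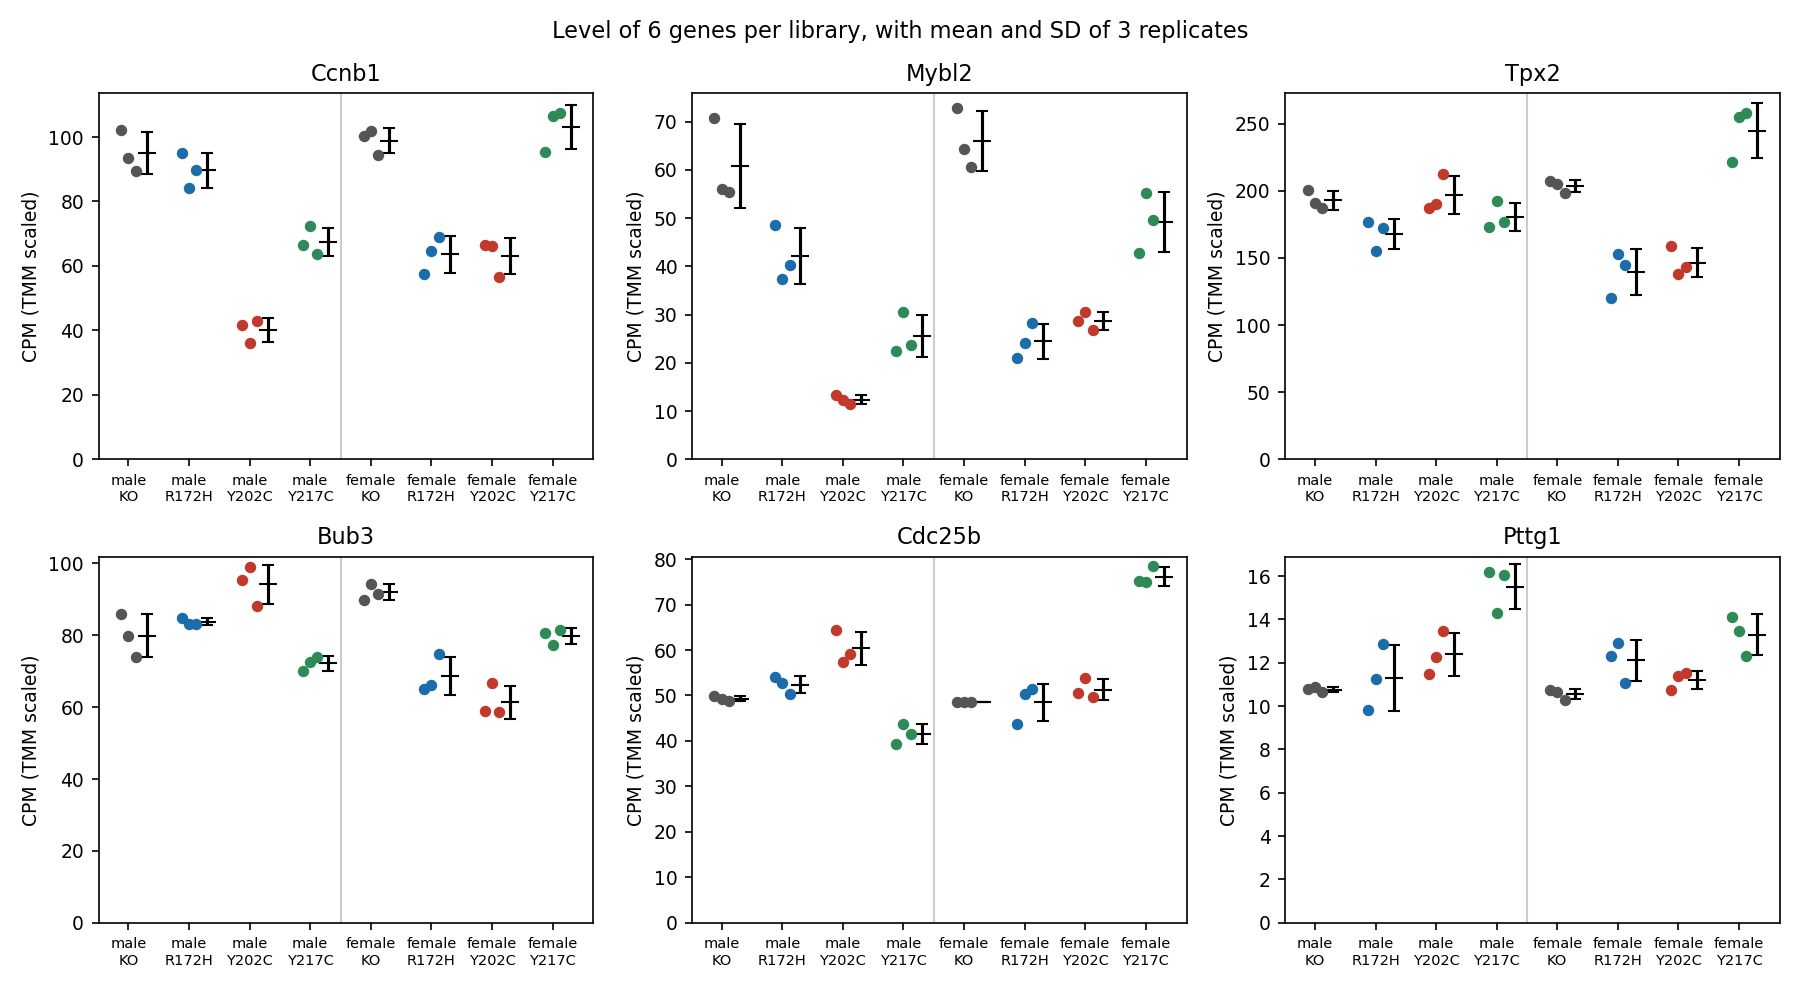
CPM per library (y axis, TMM scaled, from 0) in the 8 lines (x axis) for Ccnb1, Mybl2, Tpx2, Bub3, Cdc25b and Pttg1, with points for libraries and a bar for mean ± SD of 3 replicates. Ccnb1 and Mybl2 are lowest in male p53 Y202C, where the other genes shown are level with male p53 KO or above it.

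Genes of the spindle midzone and of cytokinesis were lower in all 6 cases in male p53 Y202C and in female p53 Y202C, and in 5 of 6 in female p53 R172H. The call of Prc1, which bundles midzone microtubules, was lost in male p53 Y202C without male p53 KO replicate 1 (-0.21, adjusted p = 0.0684) or male p53 Y202C replicate 2 (-0.20, 0.0818). Kif20a, a motor that brings the chromosomal passenger complex to the midzone, was at 153.6, 145.5 and 137.5 CPM in male p53 KO and at 43.6, 38.62 and 37.41 CPM in male p53 Y202C (log2 -1.87 ± 0.09). In the female lines it fell by less, -0.73 ± 0.09 with p53 R172H and -0.54 ± 0.09 with p53 Y202C. Anln, the actin-binding protein of the cleavage furrow, had the opposite order, with -0.86 ± 0.09 in male p53 Y202C and -1.13 ± 0.09 in female p53 Y202C. Kif23 and Racgap1 encode the 2 subunits of centralspindlin. Kif23 fell by -0.94 ± 0.08 in female p53 R172H, where Racgap1 was at -0.02 ± 0.07 and did not pass the test.

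Condensation genes fell to unequal depths. Ncapd2, a condensin I subunit, was at 275.5, 260.1 and 254.3 CPM in male p53 KO and at 85.39, 70.03 and 70.39 CPM in male p53 Y202C, a log2 fold change of -1.81 ± 0.08. Top2a, which untangles sister DNA, fell by -1.55 ± 0.08 there and Smc4 by only -0.30 ± 0.10. Smc2 and Smc4 are the core ATPases of the same condensins, and in female p53 Y202C Smc2 fell to 68.01, 49.86 and 57.25 CPM from 143.2, 143.0 and 129.9 CPM (-1.25 ± 0.12), with Smc4 at -0.29 ± 0.10. The Smc4 call in that line was lost without female p53 Y202C replicate 2 (-0.17, adjusted p = 0.128) or female p53 KO replicate 2 (0.0573), and in male p53 Y202C without male p53 Y202C replicate 2 (0.0603).

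Of the transcription factors of the programme, Mybl2 (B-Myb) showed the largest fall of the set in any line. It was at 70.75, 56.08 and 55.29 CPM in male p53 KO, 48.56, 37.35 and 40.31 CPM in p53 R172H, 22.48, 30.52 and 23.65 CPM in p53 Y217C and 13.27, 12.26 and 11.42 CPM in p53 Y202C. The 4 male lines did not overlap, and the log2 fold changes were -0.53 ± 0.13, -1.25 ± 0.13 and -2.30 ± 0.13. In females Mybl2 was at 72.74, 64.36 and 60.64 CPM in p53 KO, 21.03, 24.17 and 28.19 CPM in p53 R172H, 28.72, 30.55 and 26.87 CPM in p53 Y202C and 42.68, 55.09 and 49.6 CPM in p53 Y217C. Every female mutant library was thus below every female KO library, by -1.43 ± 0.13, -1.20 ± 0.13 and -0.43 ± 0.13 in that order of lines. Mybl2 had the lowest value of the 48 genes in male p53 R172H, male p53 Y202C, male p53 Y217C and female p53 R172H. Foxm1 fell to 51.2, 44.91 and 46.92 CPM in male p53 Y202C from 160.6, 142.4 and 137.9 CPM (-1.62 ± 0.09), by -0.75 ± 0.09 in female p53 R172H and by -0.51 ± 0.09 in female p53 Y202C. Mki67, the common marker of dividing cells, was at 127.1, 106.5 and 151.9 CPM in male p53 Y202C against 360.2, 333.6 and 327.8 CPM in male p53 KO.

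Across the 8 line means, each gene was correlated with the mean of the other 47, as a description over lines that share cultures and controls. The median Pearson r was 0.942, and 32 of the 48 genes were above 0.9. Values under 0.5 belonged to 4 genes, Tpx2 at 0.379, Bub3 at 0.018, Cdc25b at 0.007 and Pttg1 at -0.147. The range of a gene's line means ran from 0.55 (log2) for Racgap1 to 2.42 for Mybl2. Male p53 Y202C was the lowest line for 39 genes, and the highest line was female p53 Y217C for 25 and female p53 KO for 18. The r values can thus rest largely on male p53 Y202C, and they were not computed without it.

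**Figure D4:**
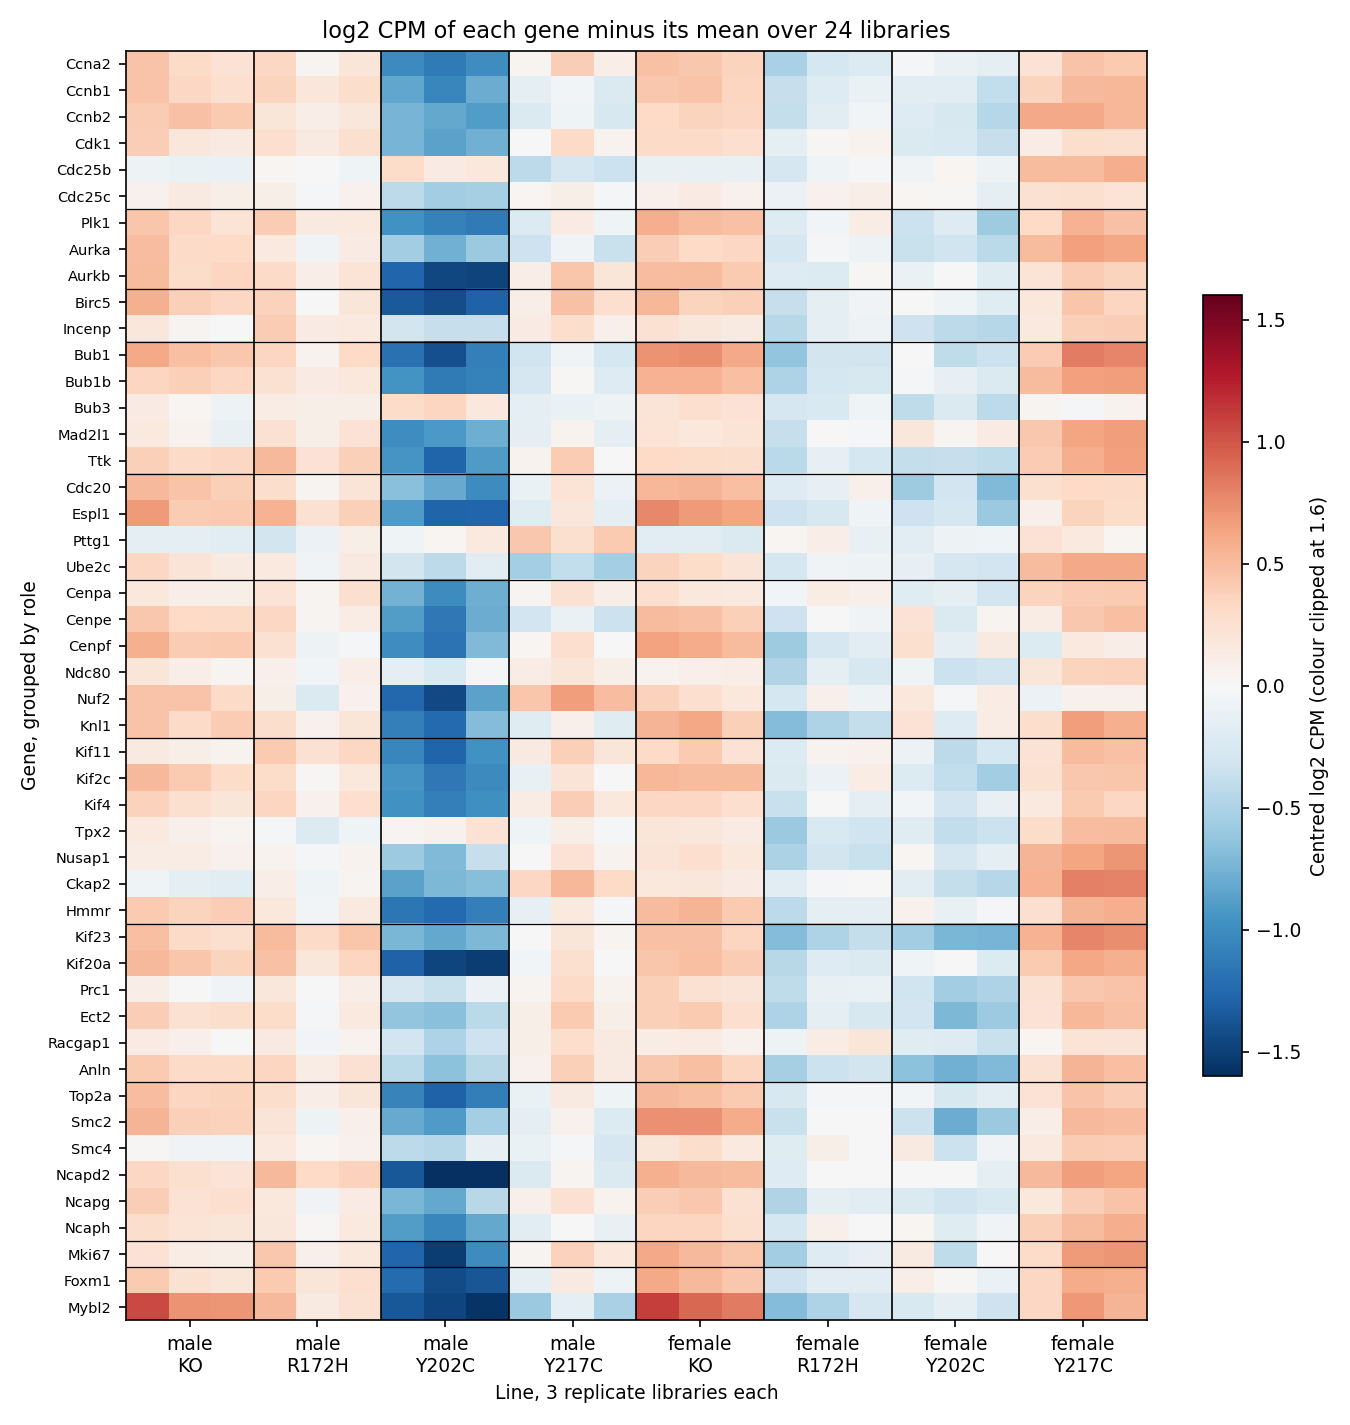
log2 CPM of each of the 48 genes (rows, grouped by role) minus its mean over the 24 libraries (columns, 3 per line), with blue for lower and red for higher. The male p53 Y202C columns are blue for all rows but Cdc25b, Bub3, Tpx2 and, in part, Pttg1, and the columns of both KO lines and of female p53 Y217C are mostly red.

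Promoter classes were set beside these changes as a description. In male p53 Y202C the 32 genes with a CHR match had a median log2 fold change of -1.24 with 31 lower and 1 higher, and the 8 without one had a median of -1.04 with 6 lower and 2 higher. In female p53 Y202C the medians were -0.61 (32 of 32 lower) and -0.26 (4 of 8 lower), and in female p53 R172H they were -0.58 (30 of 32) and -0.36 (6 of 8). The 8 genes with no promoter found had medians of -0.99, -0.51 and -0.57 in these 3 lines, in that order. With and without a match the medians were -0.11 and -0.09 in male p53 R172H and -0.31 and -0.18 in male p53 Y217C. In female p53 Y217C they were 0.03 and 0.25. The classes with and without a match both held exceptions: Bub3 has a CHR match and rose in male p53 Y202C, and Mybl2 has none and fell furthest. Values of neighbouring genes were also set beside the members: the 10 counted genes on each side of a member had medians of -0.41 to 0.76 in male p53 Y202C, with a middle value of 0.12 over the 48 members.

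Other genes of the same processes, from lists chosen with earlier results of these data known, moved in the same lines. Of 118 other mitosis genes, 89 were lower and 15 higher in male p53 Y202C (median -0.67), 79 and 11 in female p53 R172H (-0.38) and 83 and 9 in female p53 Y202C (-0.38). In that order 88.1%, 76.3% and 78.0% of the list were called, against 73.0%, 69.7% and 68.6% of all genes. Of all genes 35.4%, 35.3% and 34.3% were lower. The farthest in male p53 Y202C were E2f7, an atypical E2F repressor, at -2.36 ± 0.14, and Cdca3, at -2.07 ± 0.09. On the other side stood Cenpq, a kinetochore protein, at 1.15 ± 0.12, and Lin52, a MuvB subunit, at 1.08 ± 0.11. In female p53 R172H the extremes were Arhgap11a (-1.21), Ncapd3 (-1.03), Cenpm (0.40) and Chmp4b (0.50), and in female p53 Y202C Cdc25a (-1.26), Cdca8 (-1.24), Mad2l1bp (0.40) and Lin37 (0.42).

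In the other lines the same list split more evenly, 53 lower and 22 higher in male p53 Y217C, 26 lower and 24 higher in female p53 Y217C, and 27 lower and 13 higher in male p53 R172H. The shares called were 63.6%, 42.4% and 33.9% in that order, below the 70.5%, 56.7% and 40.7% of all genes. E2f7 (-0.99) and Trip13 (-0.96) were lowest and Cenpm (0.92) and Lin52 (0.80) highest in male p53 Y217C. Bora (-0.93) and Ska3 (-0.63) were lowest and Cenpk (0.82) and Cenpn (0.80) highest in female p53 Y217C, and in male p53 R172H Nek2 (-0.64) and Bora (-0.64) stood against Lin37 (0.44) and Wee1 (0.36). Of 41 DNA replication genes, which act in S phase before mitosis, 36 were lower in male p53 Y202C (median -1.19), 36 in female p53 R172H (-0.59) and 35 in female p53 Y202C (-0.57). Among all genes 35.4%, 35.3% and 34.3% were lower in these lines. In female p53 Y217C 16 of the 41 were lower and 4 higher, with a median of -0.17, while the median of the 48 mitosis genes there was 0.05. The share of the 41 called there was 48.8%, against 56.7% of all genes.

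Levels of markers of other cell types were recorded beside these results, and their part in them was not tested. The 5 fibroblast markers summed to 7971.1 to 9804.3 CPM in male p53 Y202C against 25297.9 to 30298.7 CPM in male p53 KO. Nearly all of that sum was Col1a1 and Col1a2, with means of 3361.2 and 5193.6 CPM against 17294.0 and 10262.3 CPM. Pdgfrb was level (259.8 against 267.3 CPM), and Dcn (4.856 against 2.699) and Lum (0.1733 against 0.1535) were not lower. In females the 5 markers summed to 35302.7 to 41277.5 CPM with p53 R172H and 31119.2 to 36874.3 CPM with p53 Y202C against 22263.0 to 24018.8 CPM in p53 KO. The 8 astrocyte markers summed to 116.3 to 122.5 CPM in male p53 Y202C against 154.9 to 175.0 CPM in male p53 KO. Most of that sum was Sox9, with means of 79.96 CPM against 150.8 CPM. Gfap, Slc1a3, S100b and Aldoc also had lower means in male p53 Y202C. Aldh1l1 (28.39 against 0.6286 CPM), Aqp4 (1.772 against 0.113) and Slc1a2 (1.786 against 0.5726) had higher ones. In male p53 Y217C the 8 markers summed to 311.3 to 368.2 CPM. In females the 8 markers were at 465.6 to 495.5 CPM with p53 R172H, mostly from Slc1a3, and 114.8 to 135.5 CPM with p53 Y202C, against 130.7 to 138.1 CPM in p53 KO. With p53 Y202C in females the means of Sox9 (80.76 against 113.3 CPM) and Gfap were lower. Those of Slc1a3 (42.69 against 18.73), Slc1a2 (1.49 against 0.3013), S100b (1.162 against 0.2095), Aldh1l1, Aqp4 and Aldoc were higher, the last 3 by little.

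Of 5 neuronal markers 2 were counted, and nearly all of their sum was Tubb3, a neuronal beta-tubulin. It was 17.57 to 21.97 CPM in male p53 Y202C and 14.74 to 17.7 CPM in male p53 Y217C against 88.06 to 89.76 CPM in male p53 KO, and 22.34 to 28.77 CPM in female p53 R172H and 38.72 to 53.69 CPM with p53 Y202C in females against 84.71 to 88.68 CPM in female p53 KO. This sum, in effect Tubb3 alone, was thus lower in every line where most of the 48 genes were lower, and also in male p53 Y217C. It was lower too in female p53 Y217C (68.53 to 70.65 CPM), where more of the 48 genes were higher than lower. In male p53 R172H the neuronal sum was 92.74 to 113.2 CPM. The other counted marker, Syt1, was low and did not follow Tubb3 in females. Its means were 0.8529 CPM with p53 R172H, 1.443 with p53 Y202C and 0.9312 with p53 Y217C against 0.572 in female p53 KO. In males they were 1.054, 0.03572 and 0.3053 CPM in the same order against 0.7674 in male p53 KO. Of 6 oligodendrocyte lineage markers 3 were counted, mostly Pdgfra, at 157.4 to 184.3 CPM in female p53 R172H and 142.7 to 162.5 CPM with p53 Y202C in females against 6.842 to 8.614 CPM in female p53 KO. In male p53 Y202C they were at 11.29 to 13.09 CPM against 26.77 to 29.07 CPM. Of 6 microglial markers 2 were counted, mostly Tmem119, at 19.96 to 22.2 CPM in male p53 Y202C against 64.41 to 80.72 CPM in male p53 KO, and at 103.3 to 114.1 CPM in female p53 R172H and 71.97 to 88.23 CPM with p53 Y202C in females against 43.07 to 46.84 CPM in female p53 KO. Of 4 endothelial markers 3 were counted. They summed to 43.26 to 47.58 CPM in male p53 KO, mostly Cdh5 (mean 33.32 CPM). With p53 R172H, p53 Y202C and p53 Y217C in males they were at 10.86 to 11.4, 6.946 to 7.672 and 6.937 to 7.566 CPM. In females they were at 17.69 to 19.1 CPM in p53 KO and, in the same order of mutations, 17.22 to 17.8, 10.28 to 12.2 and 7.389 to 9.376 CPM.

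Comparing the sexes within a genotype asks whether male and female lines differ. In p53 KO they were close: 6 of the 48 genes were lower in males and 0 higher, where 31.1% of all genes were called (13.8% lower, 17.2% higher), and the count of higher genes was 0 also at an unadjusted p under 0.05, by DESeq2 and by voomWithQualityWeights. The 3 of largest size were Mki67 at -0.37 (adjusted p = 0.0449), Ckap2 at -0.30 and Ncapd2 at -0.27. The count of 6 was not firm, with 1 gene left without male p53 KO replicate 3, 2 without female p53 KO replicate 2, 3 without male p53 KO replicate 2 or female p53 KO replicate 1, and 15 by voomWithQualityWeights or with only these 2 lines in the fit. The Mki67 call was lost without any 1 of the 6 libraries (adjusted p = 0.137 without female p53 KO replicate 1), and that of Ncapd2 without male p53 KO replicate 3 (adjusted p = 0.0578).

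The mutant lines differed more. With p53 R172H 38 genes were higher in males and 0 lower (62.0% of all genes called, 32.4% higher and 29.7% lower), and the count of lower genes was 0 also at an unadjusted p under 0.05, by DESeq2 and by voomWithQualityWeights. Kif23 was at 145.2, 126.2 and 138.3 CPM in male p53 R172H and at 62.69, 72.5 and 78.04 CPM in female p53 R172H (log2 0.94 ± 0.08), with Mybl2 at 0.78 and Knl1 at 0.70. With p53 Y202C the direction was the other way for most genes, 35 lower in males and 5 higher (75.3% called, 37.7% in each direction), led by Ncapd2 at -1.49, Foxm1 at -1.35 and Kif20a at -1.33. With p53 Y217C 34 were lower in males and 2 higher (68.0% called, 34.6% lower and 33.4% higher), led by Ube2c at -1.06, with 77.57, 85.83 and 77.48 CPM in males and 159.9, 171.6 and 171.7 CPM in females, Mybl2 at -0.94 and Bub1 at -0.90.

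Whether a mutation had unequal effects in the 2 sexes was tested directly, as an interaction term. For p53 R172H 40 of the 48 genes had a higher effect in males and 0 a lower one (58.0% of all genes called, 29.7% higher and 28.3% lower), with a median difference of 0.43 on the log2 scale. The count of lower ones was 0 also at an unadjusted p under 0.05, by DESeq2 and by voomWithQualityWeights. For p53 Y202C 32 were lower in males and 5 higher (68.0% called, 33.5% lower and 34.5% higher, median -0.56), and for p53 Y217C 21 were lower and 1 higher (54.8% called, 27.4% lower and 27.5% higher, median -0.22). Called differences thus reached 40, 37 and 22 of the 48 genes, and the last was below the background share. The 3 effects of Mybl2, for one, were -0.53, -2.30 and -1.25 in males and -1.43, -1.20 and -0.43 in females (p53 R172H first, then p53 Y202C, then p53 Y217C). Each sex is 1 culture, so sex and culture cannot be told apart. Nor can a mutation and the single line that carries it in a culture. Trp53 itself, male against female, differed by 0.23 on the log2 scale with p53 R172H, 1.97 with p53 Y202C and -1.61 with p53 Y217C. Its own interaction term was 0.17 ± 0.08 for p53 R172H and did not pass the test (adjusted p = 0.0586), but was 1.92 for p53 Y202C and -1.67 for p53 Y217C, where transgene level cannot be told apart from sex and culture either.

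**Figure D5:**
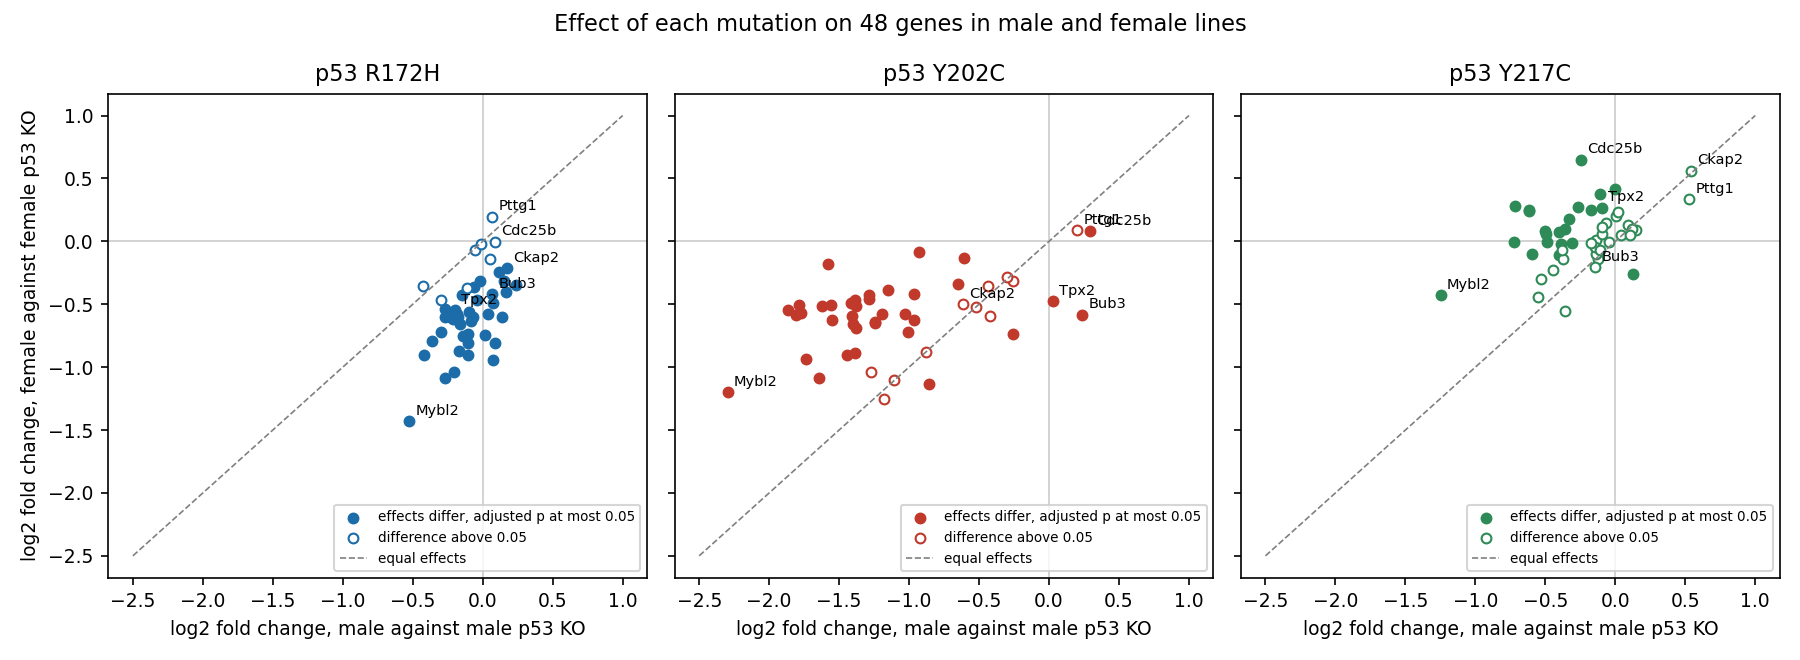
log2 fold change of each of the 48 genes in male lines (x axis) and female lines (y axis), each against the knockout of its culture, in 1 panel per mutation, with filled points where the interaction passed an adjusted p of 0.05 and a dashed line of equal effects. For p53 R172H most points lie below the line (lower in females), and for p53 Y202C and p53 Y217C most lie above it.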

How the data were processed

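Poly(A) RNA of 24 libraries was sequenced. The authors aligned reads with STAR 2.5.1a to the Ensembl mouse genome and counted unique, unambiguous reads per gene with featureCounts (Subread), and ribosomal and low genes were left out. Whether reads were counted by strand is not given in the sources used here. The deposited table holds raw counts of 14427 genes, of which 14350 matched a GENCODE M21 symbol (GRCm38). Depth was 52787288 to 136503809 counts per library (median 80684345), so counting error was small for these genes, and it is not the main error: replicates differed by a chi-square per degree of freedom of 6.845 to 59.22.

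Groups came from the sample labels. Counts were scaled by TMM and fitted with edgeR 4.0.16 (R 4.3.3) by the quasi-likelihood test, with 1 mean per line and all 24 libraries. The filter of over 1 CPM in at least 2 libraries removed 0 genes. P-values were adjusted by Benjamini-Hochberg over all 14427 genes, with a threshold of 0.05. A prior count of 2 was used for log2 CPM, and fold changes came from the fit with edgeR's default prior count. CPM are TMM-scaled, and RPKM divide them by the gene's summed exon length. Comparisons were each mutant against the knockout of its culture, males against females within a genotype, and the interaction of sex and mutation. Alternatives were DESeq2 1.42.0, its size factors in edgeR, limma 3.58.1 with voomWithQualityWeights, other filters and thresholds, only the lines compared, a replicate block, and leaving out each library. The edgeR script was tested on simulated data. Python 3.11.15, pandas 2.3.3 and numpy 2.4.6 made the summaries.

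The 48 genes and the other lists were chosen with earlier results of these data known. Any of the 48 could be named against the knockout. For the sexes and the interaction the 3 called genes of largest absolute log2 fold change were named, and from the other mitosis genes the 2 largest called rises and falls. Genes named outside this rule (Ccnb3, markers and overlapping genes) carry no test. Of 119 other mitosis genes, Ccnb3 was not among the genes counted. Opposite-strand genes among those counted overlap 9 of the 48: Ccna2, Cdc25b, Bub3, Cdc20, Kif4, Nusap1, Kif20a, Prc1 and Ncapg.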

Additional observations from a re-analysis of the deposited data

Results flagged for a closer look

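The effect of a mutation differed between the male and the female culture for 40 of the 48 genes with p53 R172H, for 37 with p53 Y202C and for 22 with p53 Y217C, each by the interaction term of edgeR's quasi-likelihood test at an adjusted p of at most 0.05. Over all genes 58.0%, 68.0% and 54.8% were called, so the last share is below the background. As log2 differences of the effects, male minus female, the largest with p53 R172H were Kif23 at 1.02 ± 0.11 (SE), Mybl2 at 0.90 ± 0.18 and Mki67 at 0.89 ± 0.20. With p53 Y202C they were Nuf2 at -1.40 ± 0.16, Kif20a at -1.32 ± 0.12 and Birc5 at -1.28 ± 0.14. With p53 Y217C they were Ube2c at -1.002 ± 0.11, Cdc25b at -0.90 ± 0.08 and Aurka at -0.87 ± 0.11. Most called differences were thus above 0 with p53 R172H and below 0 with the other mutations. Each sex is 1 culture, so sex and culture cannot be told apart. Nor can a mutation and the single line that carries it in a culture. With p53 Y202C and p53 Y217C the Trp53 level also differed (interaction 1.92 and -1.67), while for p53 R172H its interaction was 0.17 ± 0.08 and did not pass the test (adjusted p = 0.0586).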

How the results depend on the processing

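With a log2 fold change over 0.5 also required, the number called against the knockout were 1 in male p53 R172H, 11 in male p53 Y217C, 29 in female p53 R172H and 3 in female p53 Y217C, where the shares of all genes were 12.9%, 40.3%, 38.8% and 25.3% and those of the 48 were 2.08%, 22.9%, 60.4% and 6.25%. With that limit the sex comparison had 0 in p53 KO, 12 in p53 R172H and 17 in p53 Y217C (1730, 4387 and 5476 of all 14427 genes), and the interaction 18 for p53 R172H and 10 for p53 Y217C (5218 and 5054 of all genes). In these sex comparisons and interactions the share of the 48 was near that of all genes (37.5% against 36.2% for the p53 R172H interaction) or below it. With only the lines compared in the fit, 20 were called in male p53 R172H and 15 between the p53 KO lines, and at an adjusted p of 0.01 these were 6 and 1. By voomWithQualityWeights the p53 KO lines differed in 15. Leaving out 1 library gave 5 to 12 in male p53 R172H and 1 to 5 between the p53 KO lines. The other counts stayed within 1.5 times.

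Of 288 values against the knockout, 0 of the 190 called changed sign under any setting run, and 26 of the 98 not called did. Among these, Cdk1 in male p53 R172H was 0.013 by voomWithQualityWeights and -0.067 to 0.061 with a library left out, and Pttg1 there was -0.032 to 0.164. Tpx2 in male p53 Y202C was -0.023 with only genes over 5 CPM in at least 3 libraries and -0.031 to 0.063 with a library left out. Cdc25b in female p53 R172H was 0.018 by DESeq2 and with its size factors, 0.033 over 5 CPM, 0.016 with only the lines compared, and -0.047 to 0.066 with a library left out. Why these moved was not tested.

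Replicate numbers did not pair the samples: deviations of same-numbered libraries had a mean correlation of -0.0116 over 84 pairs, and in 0 of 10 comparisons was every pair over 0.1. With a replicate block 8 genes were called in male p53 R172H, 47 with p53 Y202C and 25 with p53 Y217C. In females the block left 43 with p53 R172H, 43 with p53 Y202C and 18 with p53 Y217C.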
